A study of Mus musculus with 6 samples.

Results

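Smooth muscle cells, which contract the walls of gut and vessels, and pericytes, which wrap small vessels, were followed through 10 genes in cultured mouse pancreatic buds. The genes were listed by their known roles, with earlier results of these data known. All 10 had a row in the table, of 24010 named genes in all. They comprise 6 genes of the contractile apparatus (Acta2, Tagln, Cnn1, Myh11, Actg2 and Des), the transcriptional coactivator gene Myocd, and 3 genes of the surface and signalling of mural cells, the pericytes and vascular smooth muscle of vessel walls (Pdgfrb, Rgs5 and Cspg4).

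Dorsal buds taken at E11.5 were cultured for 24 h with a bromodomain inhibitor or with vehicle. I-BET151 was given at 500 nM, JQ1 at 100 nM, and the controls (CTRL) received 0.1% DMSO. Each group had 2 Affymetrix arrays and each array carried RNA from 10 pooled buds. The labels give no mouse strain, litter or culture day, so the spread between pools may be partly technical. Values are RMA intensities on a linear scale (RMA corrects background, equalises the distribution of signal between arrays and summarises probes). The median gene lay at 57 on both control arrays, 55 on both I-BET151 arrays, and 54 and 55 on the JQ1 arrays. Every treated array thus had a slightly lower median than the controls.

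In smooth muscle, serum response factor (SRF) binds a DNA element called the CArG box and, with its coactivator myocardin or the related proteins MRTF-A and MRTF-B, drives genes of the contractile apparatus. Pericytes depend on PDGF-B, released by endothelial cells, which acts on the receptor encoded by Pdgfrb. BET proteins, the targets of both inhibitors, bind acetylated histones and promote transcription elongation. In the embryonic pancreas these cells belong to the mesenchyme and the vessels around the epithelium.

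The Acta2 promoter is shown because Acta2 had the smallest p of the 10 genes under I-BET151 and is a known target of SRF. RefSeq promoter windows (GRCm38.p6) were searched for 5 of the 10 genes: Acta2, Cnn1, Des, Rgs5 and Cspg4. The remaining genes of the 10 were not searched, so the scan says nothing of their promoters. The 250 bases before the start site were searched for the CArG box, which is CC, then 6 bases that are each A or T, then GG. The motif is the same class on both strands, so a single scan reads both. The window lies at chr19:34255374-34255623 on the minus strand and is written from 5′ to 3′, with CArG-like elements in capitals.
Acta2: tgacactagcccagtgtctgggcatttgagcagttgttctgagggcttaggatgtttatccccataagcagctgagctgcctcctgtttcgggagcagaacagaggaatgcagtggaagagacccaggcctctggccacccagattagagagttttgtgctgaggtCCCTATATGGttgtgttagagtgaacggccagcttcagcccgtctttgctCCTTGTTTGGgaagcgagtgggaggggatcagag
No exact CArG box lay in any of the 5 windows, and 1.47% of all 32851 windows held at least 1. With 1 mismatch allowed in the 6 central bases, a choice made with the Acta2 sequence known, the Acta2 window held 2 elements, CCCTATATGG beginning 84 bases and CCTTGTTTGG beginning 34 bases before the start. The other 4 windows held none. At this tolerance 8.59% of all windows had at least 1 element and 0.67% had 2 or more. A match is a description of these letters and not evidence of binding, and the scan says nothing of elements outside the window.

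In the fit to all genes none of the 10 passed the test under either inhibitor, yet nearly all read lower in treated than in control buds. Under I-BET151, both arrays lay below both control arrays for 9 genes and above them for Myocd, where 20.7% of all genes had their arrays apart in the lower direction and 21.5% in the higher. Under JQ1, 8 genes lay apart on the lower side, against 21.0% of all genes, while Tagln and Myocd overlapped the controls. Both comparisons use the same control arrays, so the like direction under the 2 inhibitors is not independent. The test was limma on log2 intensity with all 6 arrays in a single fit, and a gene was called at a Benjamini-Hochberg adjusted p under 0.05 over 24010 genes. In that test 1.13% of all genes were called under I-BET151, 3.80% under JQ1 and 4.92% for the mean of both inhibitors, and 0 of the 10 genes was called in each. This count depended on 257 dim genes (median intensity 8), none a member, whose rounded values were equal within every pair of arrays. They lower the prior degrees of freedom of limma, which were 4.18 without them and 1.76 with them. Without these genes, a choice made after seeing the data, Acta2 was called under I-BET151 (adjusted p = 0.0262), Des under JQ1 (adjusted p = 0.0289) and Acta2, Actg2 and Des for the mean of both inhibitors, all lower than in controls. At an unadjusted p under 0.05, 6 of the 10 passed on the lower side under I-BET151 and 6 under JQ1, beside 10.0% and 11.2% of all genes.

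**Figure D1:**
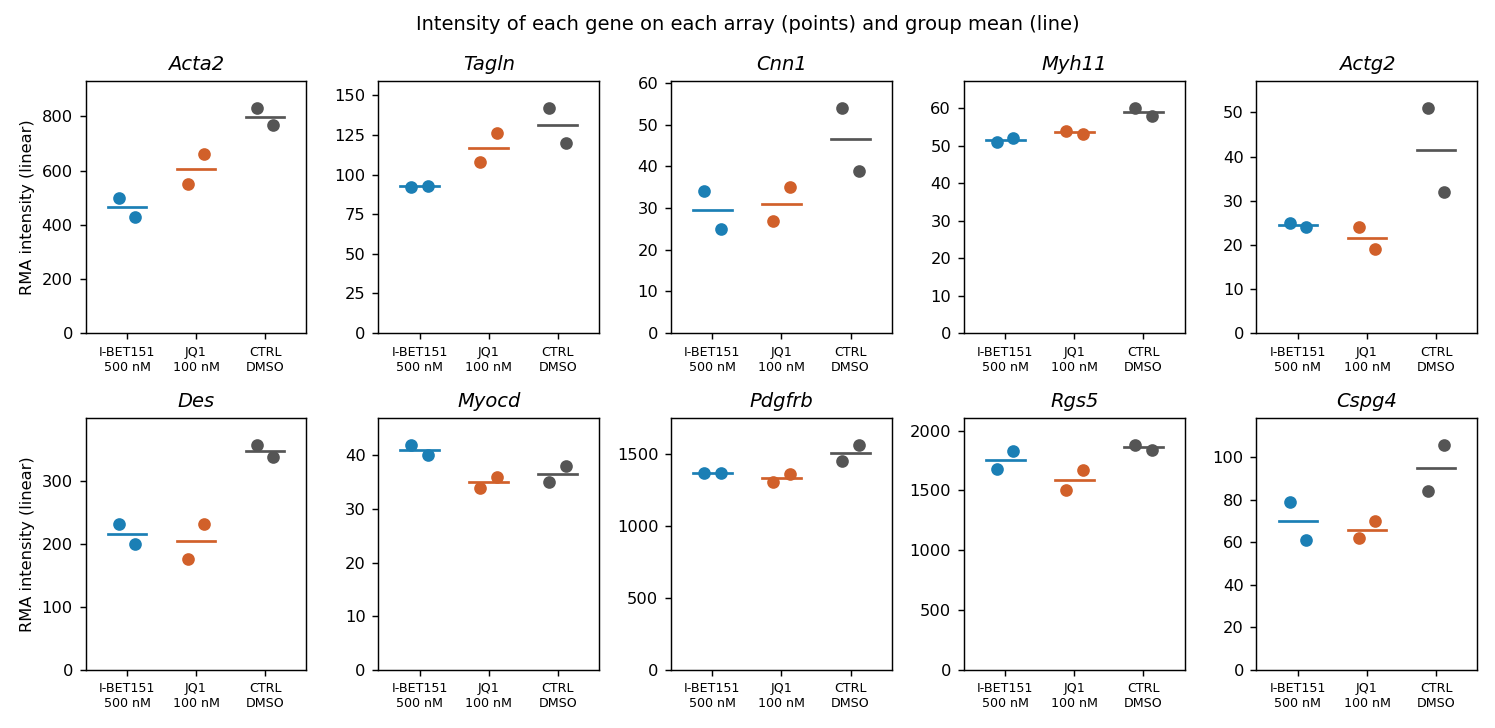
RMA intensity (linear) of each of the 10 genes on each array, with I-BET151, JQ1 and CTRL buds from left to right. Points are arrays, the line is the group mean (n = 2), and each panel has its own scale from 0. Des shows a wide gap between treated and control arrays, as Acta2 does for I-BET151, whereas Pdgfrb and Rgs5 stay close to the control level.

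Acta2, which encodes smooth muscle alpha-actin, had intensities of 500 and 430 in I-BET151 buds, 549 and 661 in JQ1 buds, and 831 and 767 in control buds. All 4 treated arrays lay below both control arrays, and the I-BET151 pair lay below the JQ1 pair. Under I-BET151 the intensity was 1.72-fold lower than in controls (limma adjusted p = 0.0788). The log2 change was -0.78 ± 0.13 (± SE here and below), with a 95% interval from -1.12 to -0.45. Under JQ1 it was 1.32-fold lower (log2 change -0.41 ± 0.13, adjusted p = 0.171). The alternative fits counted here and below include the reported fit read at an adjusted p under 0.10. A gene that met that looser threshold has it counted among its passes. For a comparison with control, leaving out either array of the other inhibitor gave identical values, so not all alternatives are distinct. Acta2 is the member closest to the threshold under I-BET151, and its call depended on the fit. It passed under I-BET151 in 11 of 22 alternative fits, with adjusted p from 0.00148 to 0.281, and under JQ1 in 1 of 22, with adjusted p from 0.0280 to 0.433.

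Des encodes desmin, the intermediate filament protein of muscle cells, which pericytes also carry. Its intensities were 232 and 200 in I-BET151 buds, 175 and 232 in JQ1 buds, and 357 and 337 in control buds. The treated groups overlapped each other and both lay well below the controls. The fold was 1.61 lower under I-BET151 (log2 change -0.69 ± 0.16, limma adjusted p = 0.132) and 1.72 lower under JQ1 (log2 change -0.78 ± 0.16, adjusted p = 0.0757). The 95% interval under JQ1 ran from -1.20 to -0.37. Des passed in 4 of 22 alternative fits under I-BET151 (adjusted p from 0.0110 to 0.354) and in 10 of 22 under JQ1 (adjusted p from 0.00337 to 0.269). A predicted gene, Gm15179, overlaps the span of Des and was measured by a row of its own at 20 to 27 on the 6 arrays.

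Tagln encodes transgelin (SM22), an actin-binding protein of early smooth muscle. Its intensities were 92 and 93 in I-BET151 buds, 108 and 126 in JQ1 buds, and 142 and 120 in control buds. The I-BET151 pair lay below every other array, while a JQ1 array lay between the controls. The log2 change was -0.50 ± 0.12 under I-BET151 (limma adjusted p = 0.135) and -0.16 ± 0.12 under JQ1 (adjusted p = 0.520). Tagln passed under I-BET151 in 4 of 22 alternative fits, with adjusted p from 0.0337 to 0.329, and in none of 22 under JQ1. Pcsk7, whose span overlaps Tagln, had intensities from 116 to 138 on the treated arrays and of 135 and 119 on the control arrays.

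Actg2, the gene of gamma-2 actin from visceral smooth muscle, was dim. Its intensities were 25 and 24 in I-BET151 buds, 24 and 19 in JQ1 buds, and 51 and 32 in control buds. The control arrays differed from each other more than any treated pair did, and all treated arrays lay below them. The log2 change was -0.72 ± 0.25 under I-BET151 (limma adjusted p = 0.231) and -0.92 ± 0.25 under JQ1 (adjusted p = 0.128), the largest size among the 10 genes under JQ1. Without control array 1 the change was -0.39 under I-BET151 and -0.58 under JQ1. Actg2 passed in 1 of 15 alternative fits under JQ1, with adjusted p from 0.0185 to 0.376. The muscle actin proteins are near-identical, and whether the array fully separates their transcripts was not tested.

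Cnn1 encodes calponin, which binds actin and slows its interaction with myosin. It was as dim, at 34 and 25 in I-BET151 buds, 27 and 35 in JQ1 buds, and 54 and 39 in control buds. Treated and control arrays did not overlap, but the gap was small beside the difference between the controls. The log2 change was -0.65 ± 0.25 under I-BET151 (limma adjusted p = 0.261) and -0.58 ± 0.25 under JQ1 (adjusted p = 0.274).

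Myh11, the heavy chain of smooth muscle myosin and a marker of mature contractile cells, had intensities of 51 and 52 in I-BET151 buds, 54 and 53 in JQ1 buds, and 60 and 58 in control buds. The groups were separate, with replicates at most 2 units apart. The log2 changes were small, at -0.20 ± 0.06 under I-BET151 (limma adjusted p = 0.175) and -0.14 ± 0.06 under JQ1 (adjusted p = 0.243). The size of Myh11's change was the smallest of the 6 contractile genes under both inhibitors.

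Myocd encodes myocardin, the SRF coactivator. Its intensities were 42 and 40 in I-BET151 buds, 34 and 36 in JQ1 buds, and 35 and 38 in control buds. It was the member with both I-BET151 arrays above the controls, by a log2 change of 0.17 ± 0.07 (limma adjusted p = 0.317), and under JQ1 the groups overlapped (-0.06 ± 0.07, adjusted p = 0.700). With each array centred on its median the JQ1 value turned to 0.005. Myocd, Myh11, Cnn1 and Actg2 were the 4 members dimmer than the median gene. The files hold no detection calls, so whether such rows stand above background was not tested.

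The mural cell genes Pdgfrb and Rgs5 were bright and moved little. Pdgfrb, the PDGF-B receptor gene, had intensities of 1374 and 1371 in I-BET151 buds, 1310 and 1362 in JQ1 buds, and 1457 and 1568 in control buds. Treated arrays lay below both controls by a narrow margin, with log2 changes of -0.14 ± 0.07 (95% interval -0.31 to 0.03, limma adjusted p = 0.345) and -0.18 ± 0.07 (95% interval -0.35 to -0.01, adjusted p = 0.214). Pdgfrb passed in none of 22 alternative fits under either inhibitor.

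Rgs5 encodes a regulator of G protein signalling that is abundant in pericytes. Its intensities were 1680 and 1832 in I-BET151 buds, 1507 and 1675 in JQ1 buds, and 1883 and 1843 in control buds. An I-BET151 array nearly reached the lower control, and the JQ1 pair lay further down. The log2 changes were -0.09 ± 0.08 (95% interval -0.30 to 0.13, limma adjusted p = 0.639) under I-BET151 and -0.23 ± 0.08 (95% interval -0.45 to -0.01, adjusted p = 0.211) under JQ1. Rgs5 passed under JQ1 in 1 of 22 alternative fits, with adjusted p from 0.0466 to 0.434.

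Cspg4 encodes the NG2 proteoglycan, found on pericytes and on glial precursors. Its intensities were 79 and 61 in I-BET151 buds, 62 and 70 in JQ1 buds, and 84 and 106 in control buds. Neither treated group overlapped the controls, although an I-BET151 array came within 5 units of them. The log2 changes were -0.44 ± 0.18 (limma adjusted p = 0.288) and -0.52 ± 0.18 (adjusted p = 0.199), wider in error than for the other mural genes. Cspg4 passed under JQ1 in 2 of 22 alternative fits, with adjusted p from 0.0481 to 0.484.

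**Figure D2:**
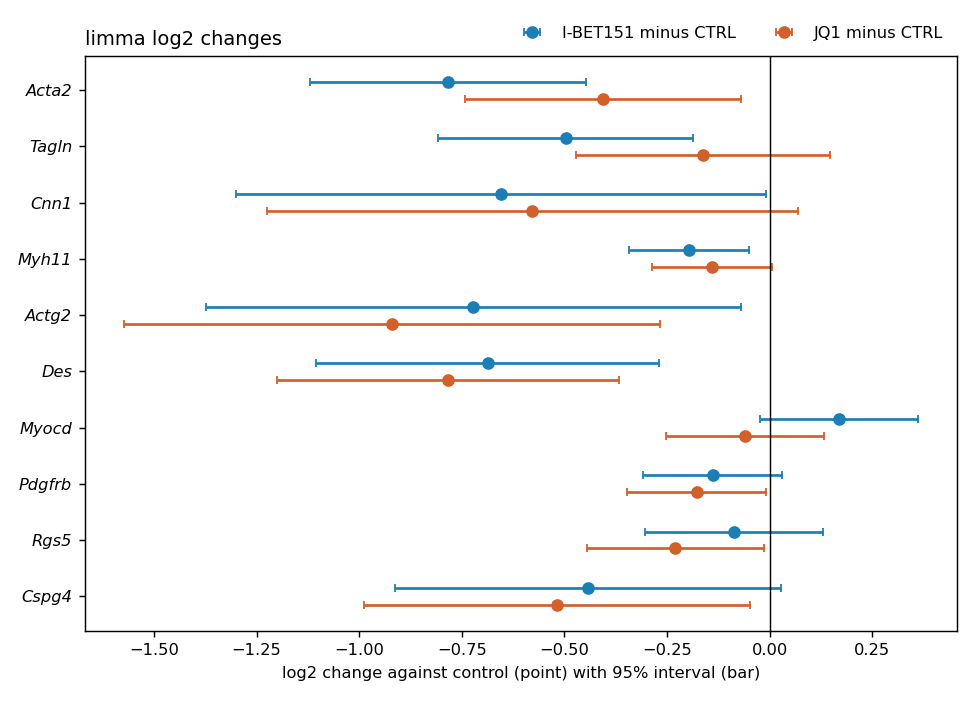
limma log2 change against control (points) with its 95% interval (bars, no adjustment for the number of genes) for I-BET151 and JQ1, n = 2 arrays per group. All points but Myocd under I-BET151 lie below 0, and the intervals of Acta2, Actg2 and Des exclude 0 under both inhibitors without passing the adjusted threshold.

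The median change was further below 0 for the contractile genes than for the mural ones. Summed over the 6 contractile genes, intensity was 824 to 934 in I-BET151 buds, 937 to 1126 in JQ1 buds and 1353 to 1495 in control buds, and Acta2 makes up most of these sums. Summed over the 3 mural genes it was 3133 to 3264, 2879 to 3107 and 3424 to 3517, in the same order. The median log2 change of the contractile genes was -0.67 under I-BET151 and -0.49 under JQ1, and that of the mural genes -0.14 and -0.23. The median over all genes was 0.00 and 0.02. The difference between contractile and mural genes was not tested.

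The doses of the compounds differ 5-fold, so a direct contrast sets these 2 treatments against each other and not the compounds at a matched dose. In the direct contrast of JQ1 over I-BET151, 0 of the 10 genes and 0 of 24010 genes (0.00% of all) passed in limma, while 3 of the 10 and 1610 of 24010 (6.71%) had an unadjusted p under 0.05. Acta2 was 0.38 ± 0.13 higher on the log2 scale in JQ1 than in I-BET151 buds (95% interval 0.04 to 0.71) and Tagln 0.33 ± 0.12 higher (95% interval 0.02 to 0.65), both with an adjusted p of 0.733. Myocd was lower in JQ1 than in I-BET151 buds by -0.23 ± 0.07 (95% interval -0.42 to -0.04, adjusted p = 0.725). For the other 7 genes the 95% interval held 0.

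For the mean of both inhibitors, 8 of the 10 genes had all 4 treated arrays below both controls, against 14.9% of all genes. Acta2 and Des came closest to the threshold there, with log2 changes of -0.60 ± 0.11 (limma adjusted p = 0.0591) and -0.74 ± 0.14 (adjusted p = 0.0596). They passed in 13 of 21 and 11 of 21 alternative fits, with adjusted p from 0.00154 to 0.261 and from 0.00190 to 0.265. Actg2 passed in 3 of 14, from 0.0144 to 0.286.

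**Figure D3:**
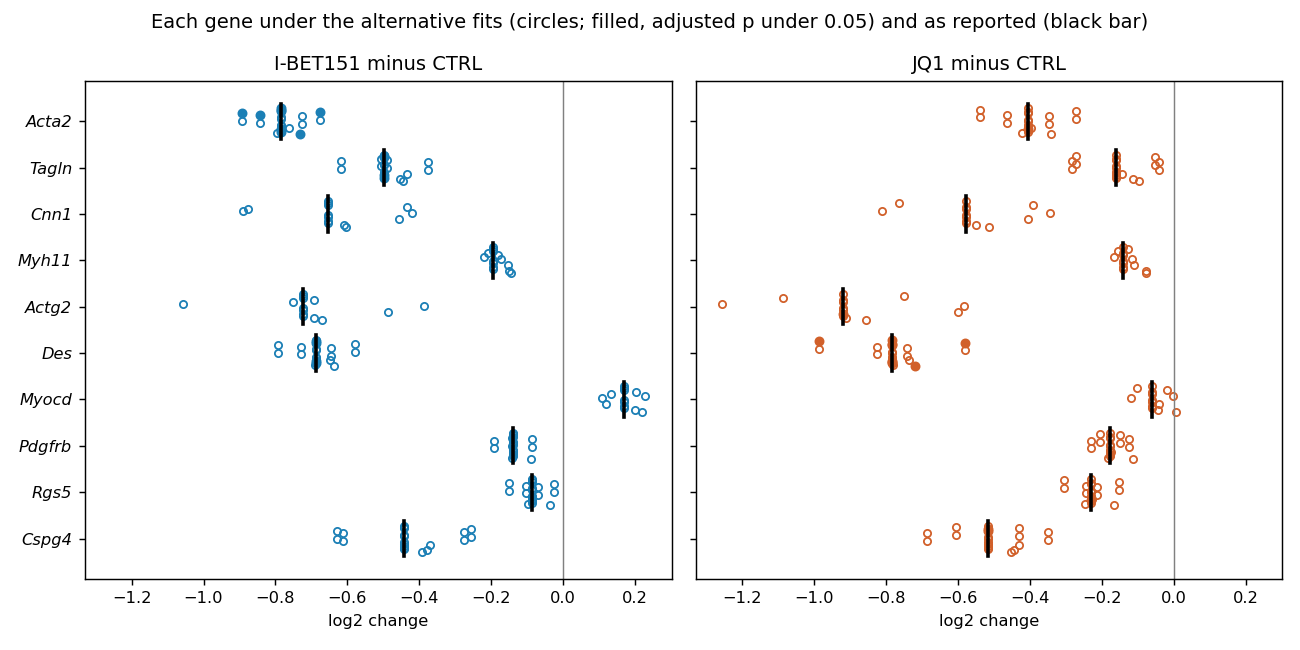
log2 change of each gene against control under the alternative fits (circles, filled where the adjusted p is under 0.05) and as reported (black bar), for I-BET151 on the left and JQ1 on the right. Filled circles under I-BET151 belong to Acta2, Tagln and Des. Under JQ1 they belong mostly to Des, and Myocd crosses 0.

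Other genes of the smooth muscle cytoskeleton went both ways. Of 24 measured, 1 fell and none rose under I-BET151, and 4 fell and 1 rose under JQ1. Among all genes, 0.870% fell and 0.262% rose under I-BET151, and 2.67% fell and 1.13% rose under JQ1. The median log2 change of the 24 was -0.15 and -0.17. Pdlim3, a muscle LIM protein gene, fell under both, with intensities of 134 and 135 in I-BET151 buds, 113 and 105 in JQ1 buds, and 355 and 379 in control buds. Its fold was 2.73 lower under I-BET151 (limma adjusted p = 0.0306) and 3.37 lower under JQ1 (adjusted p = 0.0112). Treated and control arrays of Pdlim3 were far apart. With any 1 of the 6 arrays left out and all genes fitted, no gene in the table passed, although the log2 change of Pdlim3 stayed between -1.50 and -1.40 under I-BET151 and between -1.80 and -1.70 under JQ1. When genes dimmer than the median were dropped as well, Pdlim3 passed without any 1 array, with adjusted p from 0.00360 to 0.0157 under I-BET151 and from 0.00103 to 0.00462 under JQ1.

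Tagln2, the transgelin paralogue of many cell types, fell under JQ1, to 584 and 615 in JQ1 buds against 925 and 985 in control buds (limma adjusted p = 0.0225). It stood at 675 and 640 in I-BET151 buds, where it was not called (adjusted p = 0.0536). Tpm2, a tropomyosin gene, fell 1.75-fold under JQ1 (adjusted p = 0.0241). Pgm5, a protein of muscle adhesion sites, fell 1.47-fold under JQ1 (adjusted p = 0.0415) and was named after its values were seen. Vcl, the vinculin gene of adhesion plaques, rose 1.62-fold under JQ1, to 1052 and 1100 in JQ1 buds against 670 and 661 in control buds (adjusted p = 0.0241). It stood at 1046 and 944 in I-BET151 buds, above both controls and not called (adjusted p = 0.0536).

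Calls among the actins and SRF regulators were limited to 2 regulators under JQ1. None of the 5 measured actin genes, which include the members Acta2 and Actg2, was called under either inhibitor. The cytoplasmic actin gene Actb had log2 changes of -0.13 and -0.07, and Acta1, the skeletal muscle actin gene, -0.05 and -0.04. Of 22 SRF cofactors and other regulators, Myocd among them, none was called under I-BET151, and Prrx1 and Mef2c fell under JQ1. Among all genes, 1.13% were called under I-BET151 and 2.67% fell under JQ1. Prrx1, a transcription factor gene of mesenchyme, was 2.22-fold lower (limma adjusted p = 0.0332), at 76 and 65 in JQ1 buds against 139 and 175 in control buds. Mef2c, which encodes a muscle and endothelial transcription factor, was 1.46-fold lower (adjusted p = 0.0343). Srf itself had log2 changes of 0.09 and 0.24, Mrtfa 0.21 and 0.20, and Mrtfb -0.14 and -0.14, none called.

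Among 22 other mural cell genes none was called under I-BET151, and 2 fell and 1 rose under JQ1. The shares over all genes were 1.13% called under I-BET151, and 2.67% falling and 1.13% rising under JQ1. Angpt1, an angiopoietin that mural and mesenchymal cells release to the endothelium, had intensities of 59 and 58 in I-BET151 buds, 64 and 44 in JQ1 buds, and 208 and 163 in control buds. It fell 3.47-fold under JQ1 (limma adjusted p = 0.0293) and was 3.15-fold lower, not called, under I-BET151 (adjusted p = 0.0550). Anpep, an aminopeptidase of pericytes and epithelia, fell 2.24-fold under JQ1 (adjusted p = 0.0410). Kcnj8, the potassium channel gene of pericytes, rose 1.39-fold under JQ1, to 1495 and 1438 in JQ1 buds against 1029 and 1076 in control buds (adjusted p = 0.0356).

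No gene of the PDGF list was called under either inhibitor, among 6 measured that include the member Pdgfrb. Pdgfra, the receptor gene of mesenchyme, had intensities of 1624 and 1809 in I-BET151 buds, 1816 and 1553 in JQ1 buds, and 2293 and 2359 in control buds, or log2 changes of -0.44 (limma adjusted p = 0.133) and -0.47 (adjusted p = 0.0867). Pdgfd had log2 changes of -0.53 and -0.79 and was dim, while Pdgfb, the ligand gene of Pdgfrb, had -0.02 and -0.17. Of 12 TGF-beta ligands, receptors and Smads, Eng fell under both inhibitors. Eng encodes endoglin, a co-receptor of endothelium, and was 1.64-fold lower under I-BET151 (adjusted p = 0.0430) and 1.79-fold lower under JQ1 (adjusted p = 0.0154).

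Some markers of neighbouring cell types were lower in treated buds. The called ones are named after their values were seen. Of 11 mesenchyme markers, both compounds lowered Dcn and Postn, Prrx1 fell under JQ1, and the summed intensity of the list was 12031 to 12439 in I-BET151 buds, 11668 to 11870 in JQ1 buds and 14173 to 14603 in control buds. Of 12 endothelial markers, Tek fell under both, and Emcn, Pecam1 and Cdh5 under JQ1, with sums of 4649 to 5019, 4468 to 4501 and 6219 to 6362 in the same order. Of 7 neural crest and neuronal markers, Ednrb and Stmn2 fell under both and Fabp7 under JQ1, with sums of 1047 to 1157, 987 to 1050 and 2031 to 2127. None of these lists had a gene at the lowest value of the table, which is 5. Their part in the values of the 10 genes was not tested. In bulk RNA, fewer cells of a type and less RNA per cell cannot be told apart.

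The markers of skeletal and cardiac muscle, which share Des and actins with smooth muscle, were dim on every array. The 12 genes lay between 8 and 81, and none was called. Their summed intensity was 359 to 378 in I-BET151 buds, 358 to 405 in JQ1 buds and 381 to 382 in control buds. Epithelial markers summed to 8223 to 8293 in I-BET151 buds, 7705 to 8210 in JQ1 buds and 8281 to 8553 in control buds, and of these 10 genes Krt18 fell under JQ1. No macrophage or erythroid marker was called, and of 8 mesothelium markers Upk3b fell under JQ1. Across all genes, 1.13% were called under I-BET151 and 3.80% under JQ1.

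**Figure D4:**
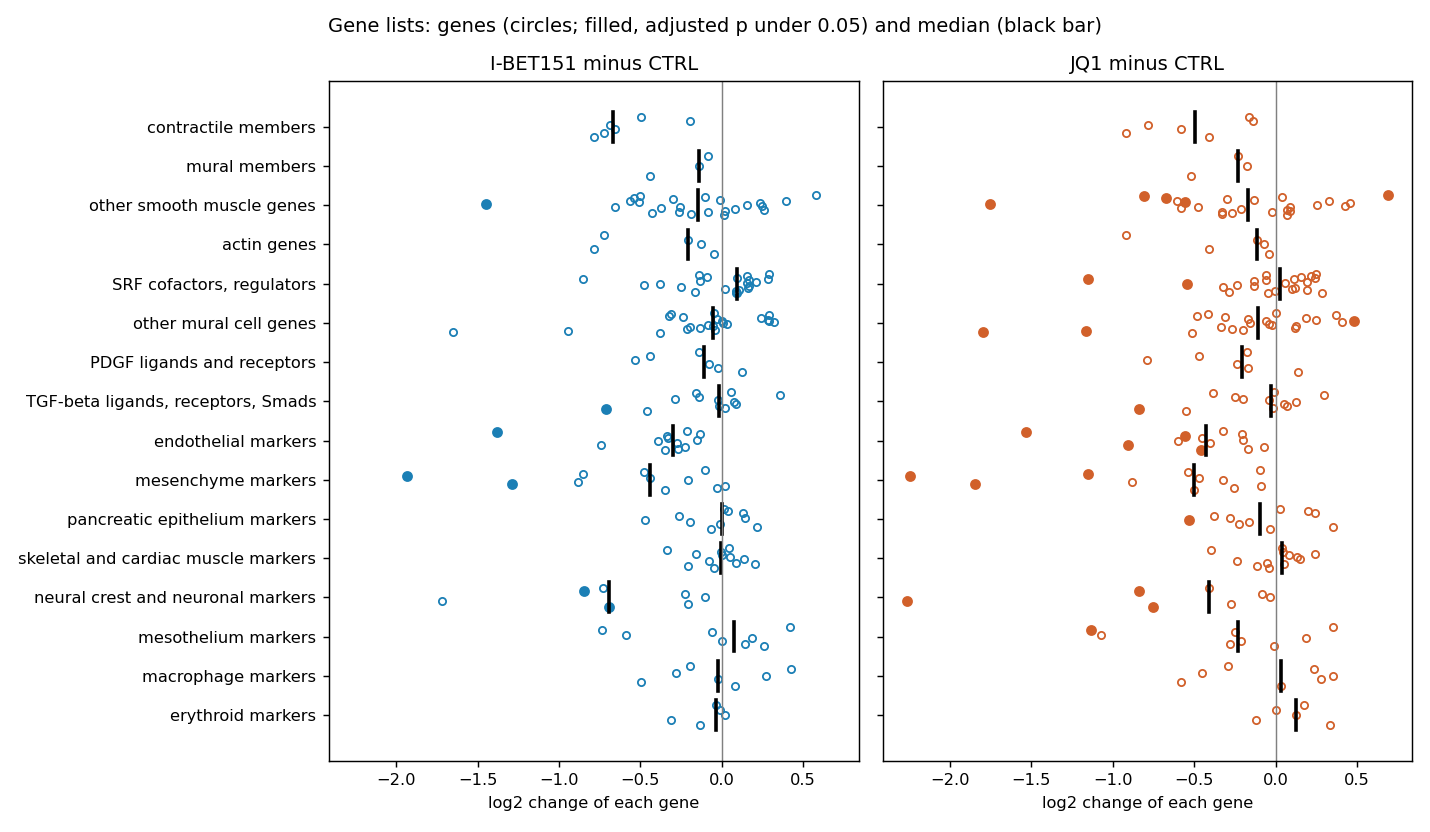
log2 change against control of each gene (circles, filled where the limma adjusted p is under 0.05) in each list, with the list median as a black bar, for I-BET151 on the left and JQ1 on the right. The contractile genes have the lowest median but one under I-BET151 and hold no filled circle, whereas filled circles lie among the mesenchyme, endothelial and neural markers.

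Genes with the most similar pattern over the 6 arrays were found by the root mean square difference between centred log2 values, among 12004 other genes brighter than the median gene. For Acta2 these were Kirrel3 (0.10 log2 units), Gpx7 (0.11) and Srgn (0.12). For Tagln they were Clu (0.05), Nr1d1 (0.06) and Gm38426 (0.07). Pdgfrb was closest to Sucla2 (0.02), Msl1 (0.03) and Gng12 (0.03), and Rgs5 to Ndufa5 (0.02), Nrde2 (0.03) and Trip10 (0.03).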

How the data were processed

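RNA from 6 pools of buds was measured on arrays, 2 per group, grouped by sample title. The deposited table holds intensity values, normalized by the authors with RMA per the submitters' processing notes, rounded to whole numbers from 5 upward. The version, the way probes were combined per gene and the array annotation's genome build are not given in the sources used here. Shifts shared by most genes are lost in RMA, and arrays give no count of depth. Separately, having only 2 arrays per group limits the precision.

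Of 24972 rows, 24014 had 1 symbol in the platform annotation, 0 had several and 958 were not listed and stayed unnamed. For 4 repeated symbols the brightest row was kept. The values were taken as log2 with no filter and fitted with limma 3.58.1 in R 4.3.3 (lmFit, eBayes, 3 residual and 1.76 prior degrees of freedom), with Benjamini-Hochberg adjustment over 24010 genes. The fit was tested on simulated data that held no genes with equal values in every pair of arrays. That test therefore does not cover their effect on the fit.

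Named genes were the 10 members, up to 4 called genes of each related list (otherwise the 2 with the smallest p) and the nearest patterns of 4 members. Members and lists were chosen with earlier results of these data known. Alternatives changed the scaling, the filter, the variance prior, the genes that enter it, the pseudocount and the threshold. They also changed the arrays fitted and the pairing of replicate numbers. Arrays with the same number did not deviate together (correlations -0.04 to -0.02).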

Additional observations from a re-analysis of the deposited data

How the results depend on the processing

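The direction against control of the 9 members other than Myocd was the same under every alternative fit run, for I-BET151, JQ1 and their mean. This was largely fixed in advance. Alternatives that change only the filter, the prior or the threshold leave the log2 change as it was. Leaving out 1 array cannot turn the sign where all treated arrays lie below both controls. That held for these 9 under I-BET151 and for all but Tagln under JQ1. Calls were not stable. Counts of members called (of all genes called) were 0 (272) under I-BET151, 0 (912) under JQ1 and 0 (1181) for the mean of both. With genes below the median intensity left out they were 3 (1438), 1 (2373) and 4 (2689), and without the dimmest 25% they were 1 (798), 1 (1728) and 3 (2044). With an intensity trend and a robust prior they were 3 (1806), 4 (2617) and 4 (3006). With log2(intensity + 16) they were 0 (661), 0 (1615) and 2 (1963), and at an adjusted p under 0.10 they were 1 (950), 1 (2216) and 2 (2713). With arrays centred on their medians 1 member was called under I-BET151, 1 under JQ1 and 2 for the mean. The same centring gave 533 genes under I-BET151 (183 rose and 350 fell, against 63 and 209) and 1391 under JQ1 (664 rose and 727 fell, against 272 and 640). Without the 257 genes whose values were equal in every pair of arrays, a choice made after seeing the data, they were 1 (640), 1 (1418) and 3 (1640). After a further quantile normalization 1 member was called for the mean. Every member called was lower. Fitting only the arrays of the 2 groups compared gave 0 genes under I-BET151 and 0 under JQ1. The replicate block also gave 0 genes in each comparison with control, although no label says that the replicate numbers pair the arrays. Leaving out any 1 of the 6 arrays gave 0 genes in each comparison. Leaving out 1 array together with the genes below the median intensity gave 0 to 3 members (395 to 1059 genes) under I-BET151, with 413 without control array 1 and 768 without I-BET151 array 2. Under JQ1 it gave 0 to 2 members (968 to 2221 genes), and for the mean 0 to 3 members (994 to 2331 genes, with 1936 without I-BET151 array 1, 2331 without I-BET151 array 2, 1870 without JQ1 array 2). JQ1 over I-BET151 gave 6 genes with the trend and robust prior and 0 otherwise. Signs that turned were those of small changes. Myocd turned to 0.005 under JQ1 with arrays centred, and to -0.005 for the mean without control array 1. For JQ1 over I-BET151, values without 1 array ran from -0.30 to 0.11 for Des, from -0.26 to 0.11 for Cspg4 and from -0.14 to 0.30 for Cnn1. Among them, leaving out I-BET151 array 1 gave Des 0.011 and Cspg4 0.111, leaving out JQ1 array 1 gave Des 0.107 and Cspg4 0.012, with or without dim genes, leaving out I-BET151 array 2 gave Cnn1 -0.145, and leaving out JQ1 array 2 gave it -0.111. Other than the lower prior degrees of freedom with the 257 genes, the cause of these differences was not tested.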
